A study of Mus musculus with 10 samples.

Results

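Kinesins are microtubule motors, and the ribosome-protected mRNA fragments (RPFs, or footprints) of their genes were examined in developing mouse neocortex. The members are all rows of the footprint count table whose mouse symbol starts with Kif or Kifc and a digit, a rule that uses names and no measured value. The table holds 22373 genes, and 43 of them met that rule. These are 42 motor genes and Kif1bp, a KIF1-binding protein that is not a motor and was matched by its name. By known function, 12 were placed in a mitotic group, 17 in a transport group and 6 in a cilium group. The 8 others include Kif1bp, the microtubule depolymerase gene Kif2a and Kif26b. These groups were set with earlier results of these data known.

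Ribosome profiling (Ribo-seq) was done on neocortex of untreated wild-type CD-1 mice, with lysates digested by RNAse-T1 and RNAse-A and with no cycloheximide. The 5 groups are embryonic stages E12.5, E14, E15.5 and E17, in days after timed mating, and P0, the day of birth. Each stage has 2 libraries, and each library is a pool of brains of both sexes, so n = 2 counts pools and not animals. Pools hold all cells of the tissue, and footprints alone were used here. Fewer cells of a type, less RNA per cell and fewer ribosomes per mRNA therefore cannot be told apart in any of these values. The labels give no separate batch or date.

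A kinesin couples ATP hydrolysis to movement along microtubules, or to shortening of their ends. One set of these motors works in dividing cells, where it separates spindle poles, moves chromosomes and builds the central spindle for cytokinesis. Another set carries vesicles, mitochondria and mRNA along axons and dendrites. In the cortex, progenitors divide at the ventricular surface, while the neurons they generate no longer divide and extend long processes.

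Library totals ran from 7544404 counts in P0 replicate 1 to 36129988 in E14 replicate 2, and kinesin motor genes took 0.0556% to 0.11% of them. Histone genes took 34% and 38.5% of the counts at E12.5 and 9.83% and 6.32% at P0. The P0 pair stood apart: the log2 ratio between replicates had an SD of 0.532 over 4559 well-covered genes, against 0.125 to 0.216 at the other stages. Levels are given as CPM, the counts per 1000000 of a library total scaled by TMM, a factor that sets most genes to no change. CPM was not divided by coding length, so levels of different genes are not ranked against each other. Changes were tested by limma-voom over 13484 genes with enough footprints, and a gene was called at a Benjamini-Hochberg adjusted p under 0.05 and a log2 fold change of at least 0.32 in size.

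Of the 43 rows, 38 had at least 32 footprints over the libraries of some stage and were tested: 12 of 12 mitotic, 17 of 17 transport, 4 of 6 cilium and 5 of 8 others. Kif19a, with 1 to 3 counts in each library, and Kif27, with 2 to 9, had too few. Kif12 had 1 count and Kif28 had 2 counts over the 10 libraries. Kif2b, a paralogue of Kif2a and Kif2c, had 0 counts, and a count of 0 in 266877621 allows a level of up to 0.0113 CPM, for counting error only.

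From E12.5 to P0 the mitotic kinesins fell and most transport kinesins rose. All 12 mitotic kinesins were called lower at P0 than at E12.5 and none was called higher, in a comparison where 32% of all genes tested were called lower and 30.1% higher. Their median log2 fold change was -3.63, with a range of -4.38 to -2.83, beside a median of -0.01 over all genes tested. Of the 17 transport kinesins, 11 were called higher and 3 lower, with a median of 0.79 and a range of -1.49 to 4.86. Kif17 and Kifc2, which had 32 footprints or more at P0 only and so were tested because of the stage where they are high, are among the 11, and without them 9 of 15 were called higher, with a median of 0.53. Across the 5 stages, the moderated F test called 33 of the 38 kinesin rows (12 mitotic, 14 transport, 3 cilium and 4 others), beside 63.8% of all genes tested.

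**Figure D1:**
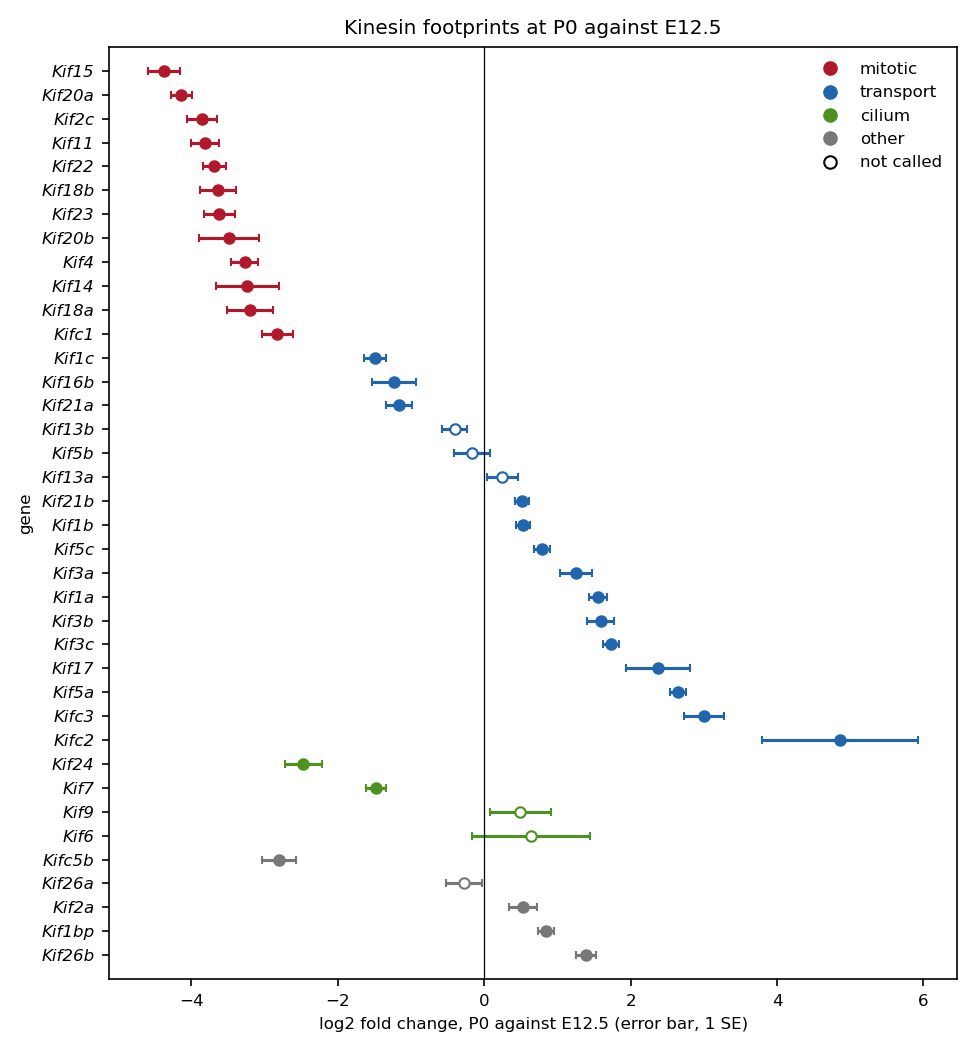
Log2 fold change of each of the 38 tested kinesin rows at P0 against E12.5 (horizontal axis), grouped by role, with points for the limma-voom estimate and bars for 1 SE. Filled points were called; all 12 mitotic genes lie between -4.38 and -2.83, while transport genes spread from -1.49 to 4.86.

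The make-up of kinesin footprints changed accordingly within each library, a measure that does not depend on how libraries are scaled. Mitotic genes held 29.2% and 30.2% of kinesin motor footprints in the E12.5 libraries, 22.0% and 21.1% (E14), 8.52% and 8.12% (E15.5), 5.07% and 4.44% (E17), and 1.41% and 1.79% (P0). No library of one stage overlapped with those of another stage. In the shallow P0 replicate 1 the share has a 95% Wilson interval of 1.16% to 1.70%, and in P0 replicate 2 of 1.67% to 1.93%. The transport genes went from 50.8% ± 0.59 (SD, n = 2) of kinesin motor footprints at E12.5 to 77.7% ± 3.6 at P0. These are shares of one total, so a lower mitotic share by itself raises the others. The summed transport level was 366.3 and 352.2 CPM at E12.5 and 657.9 and 705.3 CPM at P0. The cilium genes held 1.92% or less in every library.

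**Figure D2:**
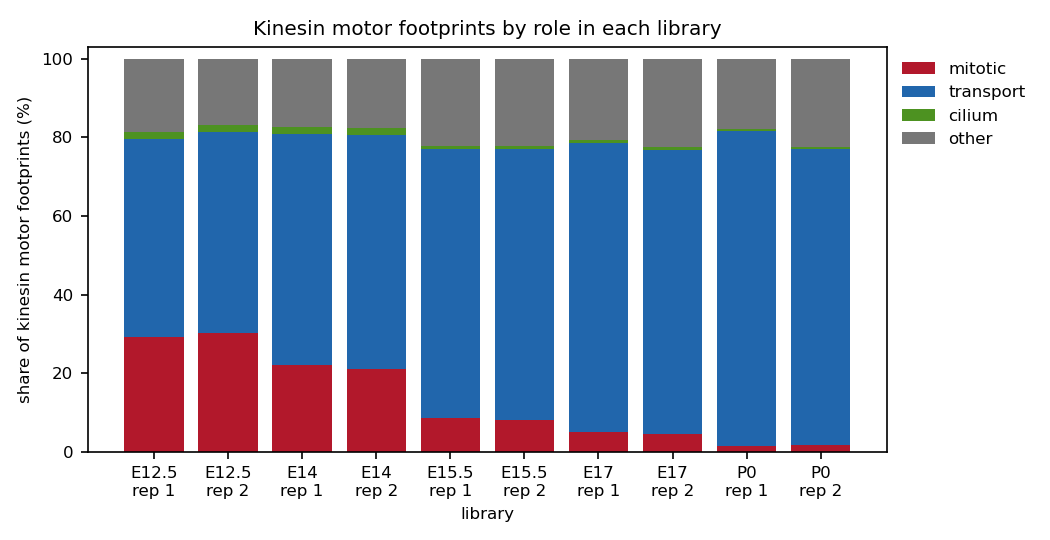
Share of kinesin motor footprints (vertical axis, %) held by mitotic, transport, cilium and other genes in each of the 10 libraries, 2 per stage, without Kif1bp. The mitotic share drops from 29.2% and 30.2% at E12.5 to 1.41% and 1.79% at P0.

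Among the mitotic motors, Kif11 (ENSMUSG00000012443) encodes the bipolar kinesin-5 that pushes spindle poles apart. Its footprints were at 30.5 and 25.8 CPM (E12.5), 15.9 and 18.0 (E14), 8.77 and 9.24 (E15.5), 5.33 and 4.73 (E17), and 1.52 and 2.10 (P0). Each stage lay below the stage before it with no overlap. The fall from E12.5 to P0 was 14.1-fold, a log2 fold change of -3.82 (SE 0.187, adjusted p = 1.32e-06 by limma-voom).

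Kif20a, a motor of the central spindle needed for cytokinesis, was at 43.9 and 44.8 CPM at E12.5 and at 30.4 and 30.6 at E14. It then read 13.0 and 11.9 CPM (E15.5), 7.62 and 6.87 (E17), and 2.07 and 2.65 (P0). The replicates were closer to each other than to any other stage throughout. Its largest loss between adjacent embryonic stages was from E14 to E15.5, which came to -1.29 on the log2 scale (SE 0.106, adjusted p = 0.000124 by limma-voom), and from E12.5 to P0 it fell 17.6-fold (adjusted p = 4.84e-07).

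Kif23 encodes the motor of centralspindlin, the complex that bundles midzone microtubules. Its levels were 10.2 and 9.91 CPM (E12.5), 6.85 and 7.64 (E14), 3.46 and 3.25 (E15.5), 1.71 and 1.69 (E17), and 0.544 and 0.859 (P0). The P0 values rest on 5 and 36 counts. No stage overlapped with its neighbour, and the log2 fold change at P0 against E12.5 was -3.62 (SE 0.209, adjusted p = 2.73e-06 by limma-voom).

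Kif15, a kinesin-12 that acts beside Kif11 in the spindle, had the lowest log2 fold change of the 38 tested rows at P0 against E12.5, except without P0 replicate 2, when Kif14 was lower. It went from 25.5 and 23.5 CPM (E12.5) through 15.9 and 17.01 (E14), 8.19 and 7.72 (E15.5), and 4.35 and 3.94 (E17) to 0.652 and 1.29 (P0). All adjacent stages were separate. That is a fall of 20.8-fold (log2 fold change -4.38, SE 0.218, adjusted p = 1.42e-06 by limma-voom), and 6 and 54 counts stand behind the P0 values.

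Kif2c, which shortens microtubule ends at kinetochores, was at 31.3 and 32.1 CPM (E12.5), 24.0 and 22.5 (E14), 10.2 and 10.5 (E15.5), 6.13 and 5.18 (E17), and 1.31 and 2.48 (P0). Its stages did not overlap either, and the log2 fold change at P0 against E12.5 was -3.85 (SE 0.206, adjusted p = 1.95e-06 by limma-voom). The chromokinesins Kif22 and Kif4, which act on chromosome arms, fell 12.9-fold and 9.66-fold. Kif18a and Kif18b, which limit microtubule length in the spindle, fell 9.18-fold and 12.4-fold. The cytokinesis motors Kif14 and Kif20b fell 9.42-fold and 11.2-fold, and each had a single count in P0 replicate 1. Without P0 replicate 2, which leaves that library alone for P0, 5 of the 12 mitotic folds moved by over 1.5 times: 37.9-fold for Kif14, 34.6-fold for Kif15, 21.7-fold for Kif20b, 23.3-fold for Kif2c and 16.7-fold for Kif18a.

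Kifc1, a minus-end directed motor that draws spindle poles together, fell least of the 12. It read 12.7 and 14.7 CPM (E12.5), 12.6 and 9.95 (E14), 4.31 and 5.23 (E15.5), 3.30 and 3.45 (E17), and 1.52 and 2.03 (P0). The E14 libraries lay just below the lower E12.5 library, and the later stages did not overlap. Its log2 fold change at P0 against E12.5 was -2.83 (SE 0.215, adjusted p = 1.15e-05 by limma-voom). Kifc5b is a close relative of Kifc1 with a log2 fold change of -2.81, and the count ratio of Kifc1 to Kifc5b stayed between 1.75 and 2.30 in all libraries. The study's methods name DeepShape-prime for isoform estimates and tximport for gene counts, but whether they made this table, and so how reads shared by the pair were assigned, is not stated, which leaves both rows uncertain as single genes. Their summed counts went from 336 and 572 at E12.5, or 18.5 and 21.4 CPM, to 22 and 122 at P0, or 2.39 and 2.91 CPM.

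**Figure D3:**
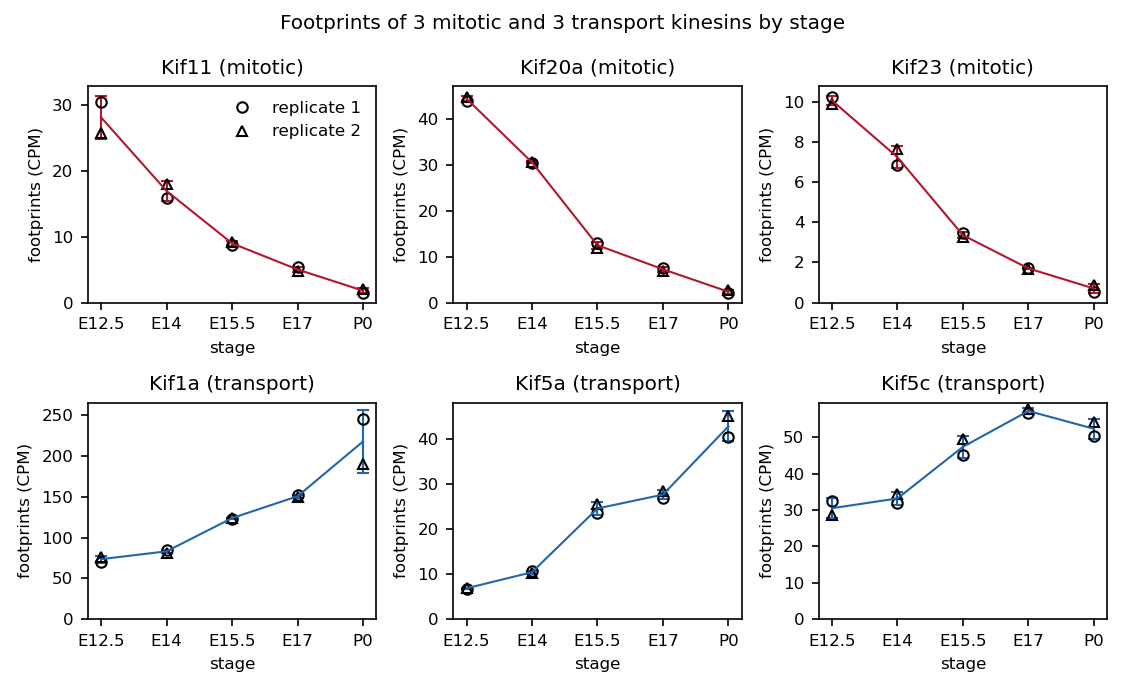
Footprint levels (vertical axes, CPM, linear from 0) of 3 mitotic kinesins (red) and 3 transport kinesins (blue) at the 5 stages, with a symbol for each library, and the line and bars for the mean and SD of 2 libraries. Kif11, Kif20a and Kif23 fall at each step, while Kif1a and Kif5a rise to P0 and Kif5c reaches its highest mean at E17.

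Since the mitotic genes moved together, their promoters were examined for 2 short elements known from cell cycle promoters, TTTGAA, the cell cycle genes homology region or CHR, and CCAAT. RefSeq sequences (GRCm38.p6, 250 bases before to 50 bases after a transcription start) matched 33 of the 43 symbols. On either strand TTTGAA was found in 10 of the 11 mitotic kinesins with an entry, all but Kif18a, and Kif20a had no entry. It was found in 1 of 11 transport kinesins, at one of the starts of Kif1a, in 1 of 5 cilium genes (Kif27) and in 2 of 6 others (Kif26b and Kifc5b), and in 20.2% of all genes with a promoter entry. CCAAT was found in 7 of 11 mitotic and 3 of 11 transport kinesins, in 3 of 5 cilium genes and 3 of 6 others, and in 41.1% of all genes. Its last T can also be the first T of TTTGAA. A match is a string of letters in a window and not a tested site.

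The windows of 30 bases around the TTTGAA nearest to the start show where it lies in 8 of the mitotic genes. They read 5′ to 3′ on the strand that holds TTTGAA, which is in capitals, and positions count from 1 at the start, with negative positions before it.
Kif11, chr19:37376351-37376380, opposite strand, -19 to -14: ccgcgcctcaatTTTGAAaaatggagacga
Kif15, chr9:122951050-122951079, opposite strand, -19 to -14: gatggccgcagaTTTGAAtttggcgcccca
Kif22, chr7:127042420-127042449, opposite strand, -17 to -12: ccgcttctctctTTTGAAttaccggggccc
Kif23, chr9:61946780-61946809, gene strand, 3 to 8: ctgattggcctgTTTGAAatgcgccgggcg
Kif18b, chr11:102925104-102925133, gene strand, 4 to 9: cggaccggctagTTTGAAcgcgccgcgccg
Kif20b, chr19:34922353-34922382, gene strand, 8 to 13: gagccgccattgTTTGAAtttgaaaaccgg
Kif4, chrX:100626072-100626101, gene strand, 20 to 25: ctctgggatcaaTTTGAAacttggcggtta
Kifc1, chr17:33890615-33890644, opposite strand, 2 to 7: acacccgccactTTTGAAtttcaacctccg
In these 8 genes the element lies within 25 bases of the start, on either strand. In Kif2c it begins at -103 and in Kif14 at -228. The matching window of Kifc5b, acaccagtcactTTTGAAtttcaacctccg on the strand opposite the gene (chr17:26917108-26917137), is nearly the same as that of Kifc1.

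The 120 bases before the start set mitotic genes beside transport genes, read on the strand of the gene, with TTTGAA and CCAAT in capitals, also as TTCAAA and ATTGG where they lie on the opposite strand.
Kif11, chr19:37376262-37376381, plus strand: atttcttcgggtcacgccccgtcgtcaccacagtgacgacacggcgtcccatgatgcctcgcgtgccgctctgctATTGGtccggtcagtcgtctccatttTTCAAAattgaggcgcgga
Kif23, chr9:61946800-61946919, minus strand: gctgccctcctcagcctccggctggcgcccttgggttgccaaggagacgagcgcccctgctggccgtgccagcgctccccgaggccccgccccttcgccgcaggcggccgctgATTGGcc
Kif1a, chr1:93101875-93101994, minus strand: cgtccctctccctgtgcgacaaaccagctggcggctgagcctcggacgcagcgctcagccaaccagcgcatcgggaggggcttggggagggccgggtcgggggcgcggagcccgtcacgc
Kif5c, chr2:49619166-49619285, plus strand: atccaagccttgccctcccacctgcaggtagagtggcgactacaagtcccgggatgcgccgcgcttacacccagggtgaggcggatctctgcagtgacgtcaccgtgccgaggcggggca
The Kif11 stretch holds 1 of each element, the Kif23 stretch holds CCAAT alone, since its TTTGAA lies after the start, and the Kif1a and Kif5c stretches hold neither. The Kif1a stretch is that of one of its starts, and another start has TTTGAA at -44 to -39. GC content was 58.3% for Kif11, 76.7% for Kif23, 74.2% for Kif1a and 65.8% for Kif5c.

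Among the transport motors, Kif1a, the kinesin-3 that carries synaptic vesicle precursors and dense-core vesicles, rose. Its levels were 70.4 and 76.6 CPM (E12.5), 84.7 and 81.5 (E14), 123 and 124 (E15.5), 152 and 149 (E17), and 245 and 191 (P0). Each stage was above the one before, although the P0 libraries lay far apart. The log2 fold change at P0 against E12.5 was 1.55 (SE 0.125, adjusted p = 1.59e-05 by limma-voom), and that from E14 to E15.5 was 0.58 (SE 0.123, adjusted p = 0.00765).

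The kinesin-1 heavy chains differed from each other. Kif5a, a heavy chain enriched in neurons, was at 6.71 and 6.95 CPM (E12.5), 10.6 and 10.2 (E14), 23.5 and 25.6 (E15.5), 26.9 and 28.3 (E17), and 40.5 and 45.1 (P0). Its stages did not overlap, and it rose 6.27-fold from E12.5 to P0 (log2 fold change 2.65, SE 0.114, adjusted p = 8.26e-07 by limma-voom). Kif5c, also enriched in neurons, was at 32.4 and 28.5 CPM (E12.5), 31.9 and 34.4 (E14), 45.2 and 49.5 (E15.5), 56.6 and 57.8 (E17), and 50.3 and 54.3 (P0). It rose 1.73-fold (log2 fold change 0.79, SE 0.108, adjusted p = 0.000319), and its E12.5 and E14 libraries overlapped.

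Kif5b, the heavy chain used by most cell types, was not called in the fit over all libraries. Its levels were 28.7 and 23.9 CPM (E12.5), 27.2 and 28.3 (E15.5), and 16.1 and 29.7 (P0), so the P0 libraries spanned the range of the other stages. The log2 fold change at P0 against E12.5 was -0.17 (SE 0.246, adjusted p = 0.557 by limma-voom), which does not show that its level was constant. Without P0 replicate 2 Kif5b was called lower at P0, with a log2 fold change of -0.69 against E12.5 (adjusted p = 0.00951) and of -0.79 against E17 (adjusted p = 0.011). Within each library, Kif5a had 0.234 and 0.292 counts per Kif5b count at E12.5, 0.458 and 0.377 (E14), 0.865 and 0.906 (E15.5), 1.01 and 0.964 (E17), and 2.51 and 1.52 (P0). The ratio of Kif5a to Kif5c went from 0.207 and 0.244 to 0.803 and 0.832. Both ratios were higher at P0 than in every embryonic library.

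The kinesin-2 motors, which pull cargo in axons and trains inside cilia, were each called higher. Kif3a rose 2.39-fold, Kif3b 3.01-fold and Kif3c 3.32-fold from E12.5 to P0 (limma-voom adjusted p = 0.00117, 0.000116 and 4.2e-06). The neuronal subunit gene Kif3c went from 8.69 and 8.86 CPM at E12.5 to 30.4 and 28.3 at P0. Kif17, a homodimeric kinesin-2, had 8 counts over the E12.5 libraries and 51 at P0, the one stage through which it passed the filter. Its fitted fold of 5.16 (adjusted p = 0.00169) is therefore given as a description, and it was also called in the fit with no filter.

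The minus-end directed motors had the largest fitted rises of the transport group. Kifc3, known from epithelial vesicle transport, went from 1.87 and 1.76 CPM (E12.5) through 2.21 and 3.07 (E14), 4.37 and 6.59 (E15.5), and 9.14 and 8.29 (E17) to 16.5 and 13.5 (P0). No adjacent stages overlapped, and the rise was 8.0-fold (log2 fold change 3.0, SE 0.273, adjusted p = 3.1e-05 by limma-voom). Kifc2, a motor found in dendrites and axons of neurons, had 1 and 0 counts (E12.5), 3 and 3 (E14), 10 and 5 (E15.5), 9 and 10 (E17), and 17 and 41 (P0). Its P0 level was 51 times its E12.5 level, with a counting interval of 8.8 to 2050 since the E12.5 libraries hold 1 count in all, and its fitted call (adjusted p = 0.00423) comes from a gene that passed the filter through P0 alone. It was also called in the fit with no filter.

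Within the kinesin-3 family, Kif1b and Kif1c parted from Kif1a. Kif1b, which carries mitochondria and synaptic vesicle precursors, was at 55.4 and 55.5 CPM (E12.5), 53.7 and 58.4 (E14), 73.3 and 73.8 (E15.5), 80.8 and 78.6 (E17), and 75.0 and 84.3 (P0). Its levels formed a low pair of stages and a high set from E15.5, a rise of 1.44-fold from E12.5 to P0 (limma-voom adjusted p = 0.00161). Kif1c, a widely expressed relative, was at 7.81 and 7.66 CPM (E12.5), 7.82 and 8.24 (E14), 2.92 and 3.21 (E15.5), 3.24 and 3.45 (E17), and 3.37 and 2.55 (P0).

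Kif1c thus fell in a single step, with every library from E15.5 on below every earlier one. Its change from E14 to E15.5 was -1.39 on the log2 scale (SE 0.139, adjusted p = 0.000238 by limma-voom), and the count ratio of Kif1c to Kif1b dropped from 0.146 and 0.141 to 0.0399 and 0.0435. At the same step, where 19.6% of all genes were called lower, so were 9 of 10 marker genes of meningeal fibroblasts and vessels, and their summed level went from 116 and 136 CPM to 60.4 and 49.98. Choroid plexus markers, of which 9 of 10 were tested and all 9 were called lower, went from 1163 and 1168 CPM to 14.3 and 11.5, with 2 and 4 of the 10 genes at 0. Their sum had been 348.4 and 287.9 CPM at E12.5, and Kif1c was not called from E12.5 to E14 (log2 fold change 0.06). The meningeal and vessel sum was 78.8 and 85.9 CPM at E17. From E14 to E15.5, 9 of 12 progenitor markers were also called lower and 1 higher, as were 6 of 9 tested red blood cell markers lower and 0 higher. The part of these cells in the Kif1c step was not tested.

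Kif16b and Kif21a were the other transport kinesins called lower at P0 than at E12.5. Kif21a, a kinesin-4 that slows microtubule growth, was at 54.5 and 52.6 CPM (E12.5), 50.9 and 59.6 (E14), 46.6 and 50.7 (E15.5), 36.5 and 36.5 (E17), and 18.8 and 28.2 (P0). It overlapped between E12.5 and E14 and was lower in both libraries at each later stage, for a log2 fold change of -1.17 (SE 0.174, adjusted p = 0.000514 by limma-voom). The related Kif21b was at 29.0 and 32.04 CPM (E12.5), 45.0 and 45.0 (E14), 57.0 and 60.1 (E15.5), 52.5 and 50.8 (E17), and 45.6 and 42.0 (P0). Kif21b was highest at E15.5 and stayed above its E12.5 level at P0 (log2 fold change 0.51, SE 0.0991, adjusted p = 0.00212).

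The count ratio of Kif21a to Kif21b went from 1.88 and 1.64 (E12.5) to 0.816 and 0.843 (E15.5) and 0.413 and 0.671 (P0). Every E12.5 and E14 library held more Kif21a than Kif21b counts, and every later library held fewer. Kif16b, a motor of early endosomes, was at 1.65 and 1.57 CPM (E12.5), 1.19 and 1.39 (E14), 0.813 and 1.06 (E15.5), 0.984 and 0.863 (E17), and 0.326 and 0.763 (P0). The P0 values come from 3 and 32 counts, and the log2 fold change at P0 against E12.5 was -1.23 (SE 0.305, adjusted p = 0.00758 by limma-voom), or -2.09 without P0 replicate 2. Its call was lost with total counts in place of TMM, with sample quality weights and with only these 2 stages in the fit. The vesicle motors Kif13a and Kif13b had log2 fold changes of 0.25 and -0.41 and were not called.

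**Figure D4:**
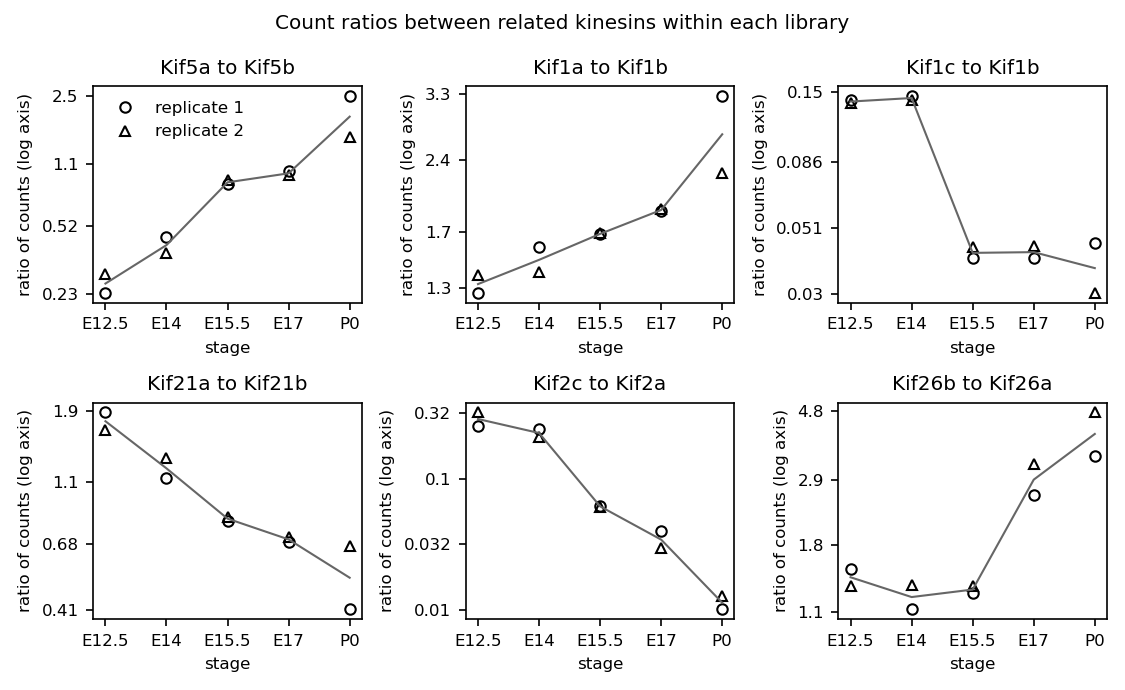
Ratio of the counts of related kinesins within each library (vertical axes, log scale) at the 5 stages, with a symbol per library and a line through the geometric mean of 2 libraries. Kif5a to Kif5b climbs from 0.234 and 0.292 at E12.5 to 2.51 and 1.52 at P0, while Kif1c to Kif1b drops between E14 and E15.5 and Kif2c to Kif2a falls from 0.254 and 0.321 to 0.0102 and 0.0128.

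The kinesin-13 genes Kif2a and Kif2c were called in opposite directions at P0 against E12.5. Kif2a, a depolymerase that also trims axon branches in neurons, was at 123 and 99.97 CPM (E12.5), 100.3 and 107.5 (E14), 163 and 171 (E15.5), 153 and 174 (E17), and 128 and 194 (P0). Its E12.5 and E14 libraries overlapped and all later libraries were higher, with a log2 fold change of 0.69 from E14 to E15.5 (SE 0.189, adjusted p = 0.0223 by limma-voom). The call at P0 against E12.5 (log2 fold change 0.52, SE 0.192, adjusted p = 0.041) was lost under 11 of 19 alternative settings. Per Kif2a count there were 0.254 and 0.321 Kif2c counts at E12.5 and 0.0102 and 0.0128 at P0.

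Kif26b, an atypical kinesin that binds microtubules, was at 4.40 and 5.12 CPM (E12.5), 5.83 and 5.42 (E14), 6.66 and 6.25 (E15.5), 9.49 and 10.3 (E17), and 13.6 and 11.95 (P0). Its stages did not overlap, and it was the one kinesin called higher from E15.5 to E17 (log2 fold change 0.61, SE 0.125, adjusted p = 0.0249 by limma-voom). Its relative Kif26a was not called in the fit over all libraries, with a log2 fold change of -0.28 at P0 against E12.5. Kif26b counts per Kif26a count were 1.51 and 1.33 at E12.5 and 3.47 and 4.77 at P0. Kif1bp, a partner of several kinesins, was at 37.4 and 38.5 CPM at E12.5 and at 71.3 and 65.8 at P0, a rise of 1.80-fold (adjusted p = 0.000241).

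In the cilium group, Kif7, which sits at the tip of the primary cilium in Hedgehog signalling, was at 7.31 and 8.41 CPM (E12.5), 4.82 and 4.601 (E15.5), and 2.61 and 2.89 (P0). It fell 2.79-fold from E12.5 to P0 (limma-voom adjusted p = 3.77e-05). Kif24, a centriolar motor that restrains cilium formation in cycling cells, fell 5.55-fold (adjusted p = 6.21e-05). Kif6, a motile cilium gene, read 0.109 and 1.17 CPM at P0 from 1 and 49 counts and was not called.

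Kif9, also of motile cilia, was at 0.715 and 0.823 CPM (E12.5), 1.72 and 1.68 (E14), 0.271 and 0.549 (E15.5), 0.413 and 0.601 (E17), and 0.435 and 1.31 (P0). E14 stood above both neighbours, and the log2 fold change from E14 to E15.5 was -2.18 (SE 0.434, adjusted p = 0.00544 by limma-voom). This call was lost without E15.5 replicate 1. Of 14 multiciliated cell markers 8 were tested. At this step 5 were called lower and 0 higher, beside 19.6% and 16.5% of all genes tested, and Ccdc39 had a log2 fold change of 0.53 and was not called. The summed level of the 14 markers went from 18.6 and 19.0 CPM to 8.64 and 8.95, with 0 and 4 of the 14 at 0. The drop of choroid plexus markers falls at the same step, and its part in the Kif9 change was not tested.

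Step by step, the mitotic kinesins were lower at every transition. From E12.5 to E14 all 12 were lower in both libraries with no overlap, as were 26.2% of all genes tested, while 27% were higher without overlap. Their median log2 fold change was -0.55, yet limma-voom called 0 of the 38 kinesin rows, in a comparison where 0.497% of all genes were called higher and 0.141% lower. At an unadjusted p under 0.05 there were 10 mitotic genes, all lower, and 15 kinesin rows in all. Over the 13484 genes tested, 2137 had such a p. The edgeR test called 0 kinesin rows and DESeq2 called 5. Over all genes limma-voom called 86, edgeR 85 and DESeq2 388. When either P0 library was left out, limma-voom called more kinesin rows, and it also called more of all genes.

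From E14 to E15.5, 28 of the 38 rows were called, 11 higher and 17 lower, where 16.5% of all genes were called higher and 19.6% lower. All 12 mitotic genes were among those lower, with a median log2 fold change of -1.07. Of them 9 were called with edgeR, with DESeq2 and without either E15.5 library, 11 without E14 replicate 1 or without the filter, and 10 without E14 replicate 2, and the calls of Kif14, Kif18a and Kif20b were the ones lost. Of the transport genes 9 were called higher (Kif1a, Kif1b, Kif3a, Kif3b, Kif3c, Kif5a, Kif5c, Kif21b and Kifc3) and Kif1c lower, with a median of 0.39. The cilium genes Kif7, Kif9 and Kif24 were called lower, as was Kifc5b, and Kif2a and Kif1bp were called higher, the latter in 8 of 19 alternative settings. The transport count depended on single libraries: leaving out replicate 1 or replicate 2 of E14 gave 4 and 5, and leaving out replicate 1 or replicate 2 of E15.5 gave 4 and 2. With E15.5 replicate 1 left out 17 rows were called in all, and with E15.5 replicate 2 left out 16.

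From E15.5 to E17, 9 rows were called: 8 mitotic genes lower and Kif26b higher, where 3.43% of all genes were called lower and 5.61% higher. No transport gene was called. Leaving out any 1 of the 4 libraries of these stages left 0 calls, although the fits without an E12.5, E14 or P0 library made up to 14, the highest count being without P0 replicate 2. The median of the mitotic genes was -0.78 on the log2 scale, with a range of -0.98 to -0.48, beside a median of -5.2e-05 over all genes tested.

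From E17 to P0, 16 rows were called, 5 higher and 11 lower, where 9.46% of all genes were called higher and 11.1% lower. The lower rows were 10 mitotic genes, all but Kif14 and Kif20b, and Kif21a. The higher rows were the transport genes Kif1a, Kif5a, Kif17, Kifc2 and Kifc3, or 3 of 15 transport genes without Kif17 and Kifc2, which were tested only through their P0 counts. Of 19 alternative settings, Kif17 kept its call in 4, Kif21a in 7, Kifc1 in 8 and Kifc3 in 11. Leaving out replicate 1 or replicate 2 of E17 gave 6 and 8 calls, and there were 0 when only these 2 stages entered the fit.

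**Figure D5:**
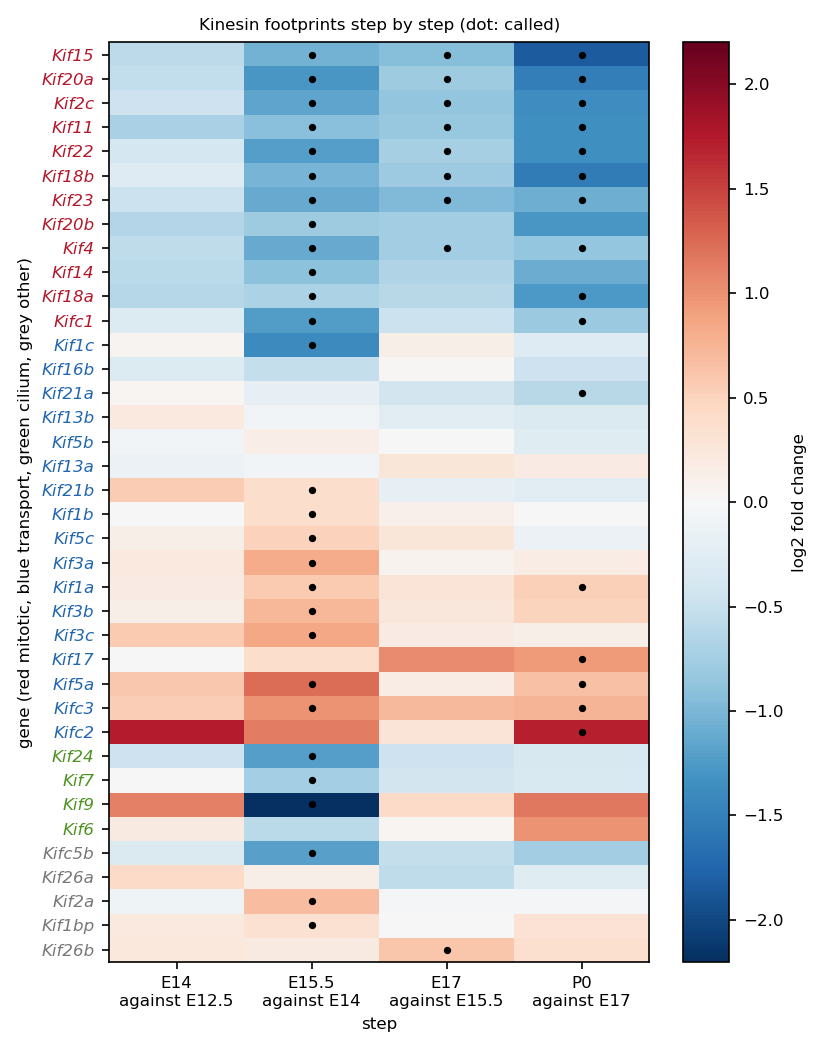
Log2 fold change (colour scale) of the 38 tested kinesin rows at the 4 steps between adjacent stages (horizontal axis), with a dot where limma-voom called the gene. Mitotic genes (red names) are blue at all steps, with 12, 8 and 10 calls at the last 3 steps, and the transport genes (blue names) have 9 of their rises at E15.5 against E14.

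The scale of the libraries touches these counts. With total counts alone, in place of TMM, the median over all genes moved to 0.28 at E15.5 against E14 and to 0.51 at P0 against E12.5, and of all genes called at P0 against E12.5, 72.0% were higher in place of 48.5%. At E15.5 against E14 that split was 72.7% in place of 45.6%, at P0 against E17 it was 63.3% in place of 46.1%, and at E14 against E12.5 it was 90.9% in place of 77.9%. With that scaling the mitotic median at P0 against E12.5 was -3.11 with 12 genes called lower, and 12 transport genes were called higher. At E15.5 against E14 it left 9 mitotic genes called lower.

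Known partners of the motors were counted from lists chosen by function, with earlier results of these data known, so the counts are descriptions. Of 30 mitotic partner genes, 29 were called lower at P0 than at E12.5 and 0 higher, beside 32% and 30.1% of all genes tested, with a median log2 fold change of -3.71. The spindle checkpoint kinase gene Bub1b had the lowest value, -4.62 (SE 0.22, adjusted p = 1.19e-06 by limma-voom), while Ckap5, a microtubule polymerase, was not called (-0.50, adjusted p = 0.0737). The kinetochore motor Cenpe, a kinesin by descent that the name rule leaves out, had a log2 fold change of -3.68 (SE 0.274, adjusted p = 1.05e-05). At E15.5 against E14, 28 of the 30 were called lower, beside 19.6% of all genes.

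Of 31 cargo adaptors and light chains in the table, Kif1bp among them, 21 were called higher and 4 lower at P0 against E12.5, where 30.1% of all genes were called higher and 32% lower, with a median of 0.85. The kinesin-1 light chain gene Klc1 had mean levels of 135 CPM at E12.5 and 461 CPM at P0, a log2 fold change of 1.78 (SE 0.0814, adjusted p = 1.03e-06 by limma-voom). Kifap3, the kinesin-2 accessory subunit, had a log2 fold change of 1.74 (SE 0.201, adjusted p = 0.000118). The ends of the list were the liprin gene Ppfia4 at 3.21 (SE 0.354, adjusted p = 9.25e-05) and Hap1, which links huntingtin to motors, at -1.31 (SE 0.158, adjusted p = 0.000159).

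Dynein carries cargo in the direction opposite to most kinesins, and 12 of its 19 subunit and regulator genes were called higher and 2 lower at P0 against E12.5, against the same 30.1% and 32% of all genes, with a median of 0.56. Dync1i1, a dynein intermediate chain of neurons, had mean levels of 10.6 CPM at E12.5, 210 CPM at E15.5 and 315 CPM at P0, with a log2 fold change of 4.90 at P0 against E12.5 (SE 0.128, adjusted p = 3.74e-07 by limma-voom). Nde1, a dynein regulator needed for progenitor divisions, had a log2 fold change of -3.43 (SE 0.148, adjusted p = 8.28e-07).

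Markers of the tissue's main cell types moved over the same stages. Of 12 neuron markers 10 were called higher and 0 lower at P0 against E12.5, a comparison that called 30.1% of all genes higher and 32% lower, and their summed level went from 2417 and 2387 CPM to 8291 and 9253, with no marker at 0 in any library. Of 12 markers of radial glia and progenitors 9 were called lower and 2 higher, with a median log2 fold change of -2.50. The summed level of these 12 was 2478 and 2449 CPM at E12.5, 2295 and 2433 at E15.5, 2485 and 2620 at E17, and 1517 and 2061 at P0, again with none at 0. At E15.5 against E14, 9 of the 12 were called lower and 1 higher, beside 19.6% and 16.5% of all genes tested. The summed mitotic kinesin level was 212.4 and 207.6 CPM at E12.5 and 41.1 and 37.3 at E17. The part of changing cell numbers in the kinesin values was not tested.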

How the data were processed

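The deposited file, 1 table for the whole series, holds whole-number footprint counts per gene, which the authors did not scale to depth. The submitters' processing notes name STAR 2.7.0. Per the study's methods, duplicate reads were collapsed and reads of structural RNA were removed before alignment, and reads matching several places were kept. The methods name GENCODE release M12 as the annotation, with DeepShape-prime and tximport for quantification, and whether those steps made this table is not stated. The build name is not given in the sources used here. Of 22373 identifiers, 22274 matched a symbol.

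Counts were analysed in R 4.3.3 with edgeR 4.0.16 (TMM), limma 3.58.1 and, as an alternative, DESeq2 1.42.0. Genes with 32 footprints or more over the 2 libraries of a stage were kept, 13484 in all. Limma-voom fitted 1 coefficient per stage over the 10 libraries, with two-sided moderated tests and Benjamini-Hochberg adjustment over all genes kept. The steps were tested on simulated data. The study describes the pooled lysates as biologically independent, and does not say whether they came from separate litters. The p-values measure the spread between these pools. Intervals cover counting error only.

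The members, role groups, partner lists and markers were chosen with earlier results of these data known. Values in every library were given for the genes named in the choice of members, for members with a mean of at least 100 counts and the largest called rises and falls at each comparison, for members called against most of their group, and for paralogues called in opposite directions. Kif5b, Kif7, Kif9, Klc1, Kifap3 and Cenpe were named after their values were seen.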

Additional observations from a re-analysis of the deposited data

How the results depend on the processing

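Results were recomputed under 19 alternatives: other scalings, no filter, edgeR, DESeq2, sample quality weights, a replicate block, only the 2 stages compared, and each library left out in turn. In every alternative that kept 2 libraries per stage, 12 mitotic kinesins were called lower at P0 against E12.5, and 10 to 12 transport kinesins were called higher. Kif17 and Kifc2, which passed the filter through P0 alone, are among these transport genes in each. Those alternatives called 6009 to 8949 of all genes, higher or lower. Of 1007 values of single named genes, 895 kept their direction and side of the threshold, 109 lost the call, 2 gained one and 1 reversed: Kif21a at E15.5 against E14 was -0.18 and became 0.11 with total counts only.

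The counts of kinesin rows called per step were less stable. For E14 against E12.5 the count of 0 became 3 with total counts only, 5 with DESeq2 and 10 with sample quality weights, and ranged from 0 to 14 with 1 library left out. For E15.5 against E14 it ranged from 16 to 28 with 1 library left out. For E17 against E15.5 the count of 9 became 19 with sample quality weights and 17 with only the 2 stages compared, and ranged from 0 to 14 with 1 library left out. For P0 against E17 the count of 16 became 3 and 0 under those settings, with a range of 6 to 19. The transport kinesins called higher at E15.5 against E14 ranged from 2 to 9 with 1 library left out. Over all genes, the calls at E14 against E12.5 went from 86 to 143 with total counts only, 388 with DESeq2 and 655 with sample quality weights. The cause of these shifts was not tested.

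With total counts only, the mitotic median was -0.78 at E15.5 against E14 and -3.11 at P0 against E12.5, where leaving out 1 library gave -4.11 to -3.57. The transport median at E15.5 against E14 was 0.69 with total counts only, 0.44 with no filter, 0.45 with edgeR, 0.46 with DESeq2 and 0.38 to 0.58 with 1 library left out.

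Whether replicate numbers pair the libraries was not settled. The deviations of same-numbered libraries correlated between -0.641 and 0.429 over 10 pairs of stages, with 5 over 0.1. All pairs with E12.5 were negative (-0.641 to -0.109), while pairs among the later stages ran from -0.0442 to 0.429. With a replicate block, 27 rows were called at E15.5 against E14, 12 at P0 against E17 and 32 at P0 against E12.5. Levels per coding length were not run, since no coding lengths were used here. The shallow P0 replicate 1, with 1 to 20 counts for each mitotic kinesin, limits the precision of the P0 values.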
